A study of Homo sapiens with 6 samples.

Results

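The expression of 10 genes of pyrimidine salvage and nucleoside transport was followed in Panc1 cells, an established line from a human pancreatic carcinoma, after exposure to BRQ or to its solvent control DMSO. The set was fixed by name and held the uridine-cytidine kinases UCK1, UCK2 and UCKL1, the deoxynucleoside kinases TK1, TK2 and DCK, the monophosphate kinase CMPK1, the deaminase CDA, and the equilibrative nucleoside transporters SLC29A1 and SLC29A2. All 10 were found among the 16197 genes of the deposited table, and all 10 were among the 10689 genes that averaged 1 FPKM or more and were tested. FPKM stands for fragments scaled to gene length and to the fragment total of the library, so levels of different genes can be compared per length.

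The study held 6 libraries, 3 labelled BRQ and 3 labelled DMSO. Both groups were grown in DMEM with fetal bovine serum and antibiotics. The title of the series speaks of inhibiting DHODH, an enzyme that brequinar is known to block, and BRQ is taken to be that compound. The labels give neither its dose nor the length of exposure. No label says whether libraries of a group came from separate cultures, so a p-value here reflects how far these libraries scatter, and that scatter may be technical alone.

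Cells obtain pyrimidine nucleotides by building UMP from small precursors, a route in which DHODH acts at the mitochondrial inner membrane, or by salvage. In salvage, nucleosides enter through transporters of the SLC29 and SLC28 families and are trapped by phosphorylation, uridine and cytidine by UCK enzymes, thymidine by TK1 in the cytosol and TK2 in mitochondria, and deoxycytidine by DCK. CMPK1 then carries UMP and CMP to the diphosphates. The same proteins handle nucleoside drugs used in pancreatic cancer, since SLC29A1 admits gemcitabine, DCK phosphorylates it and CDA inactivates it.

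Of the 10 genes, 5 rose in BRQ cells (TK1, UCK1, DCK, SLC29A1 and UCKL1), 3 fell (SLC29A2, UCK2 and TK2), and CDA and CMPK1 did not pass the test. Calls are limma adjusted p-values under 0.05 over all tested genes. Calls were frequent in this comparison, since 62.1% of tested genes passed, 36.9% as higher and 25.2% as lower, and the count of members is to be read against those shares. Of the called genes, 59.4% were higher in the deposited values, but 50.3% after median-of-ratios scaling and 50.5% after trimmed-mean scaling, which moved the median of all tested genes to 0.00. In RNA from whole cultures, fewer cells expressing a gene and less RNA per cell cannot be told apart. The values of the BRQ libraries lay apart from those of the DMSO libraries in 8 of the 10 members and in 67.2% of all tested genes. The median log2 fold change was 0.15 for the members and 0.06 for all tested genes. Fold changes are log2(FPKM + 1) in BRQ minus that in DMSO, and a ± after a fold change is its SE. Levels are means ± SD (n = 3).

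**Figure D1:**
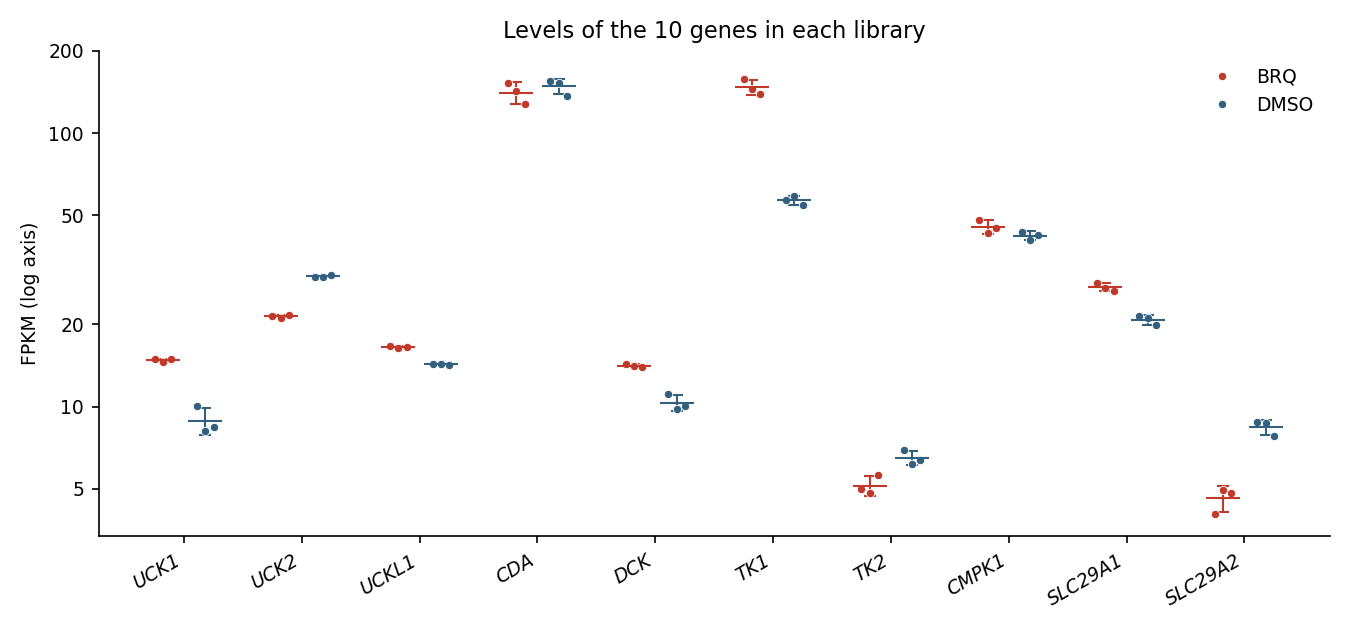
FPKM of the 10 genes on a log axis, with 3 BRQ libraries (red) to the left of 3 DMSO libraries (blue) for each gene; points are libraries, dashes are means and bars are SD. TK1 stood at 139 to 158 FPKM in BRQ libraries and 54.5 to 58.7 FPKM in DMSO libraries, while the points of CDA and CMPK1 overlapped between groups.

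The libraries themselves separated by group, with Pearson correlations of log2(FPKM + 1) of 0.995 to 0.997 within groups and 0.968 to 0.974 between them. The table gives no fragment totals, but the spacing of its lowest values put relative depth at 1.02 to 1.03 in BRQ libraries and 0.959 to 0.986 in DMSO libraries. The cells expressed all 6 epithelial and Panc1 markers at 1 FPKM or more in some library, with sums of 3071 to 3251 FPKM in BRQ libraries and 4210 to 4379 FPKM in DMSO libraries, mostly from KRT8, KRT18, KRT19 and VIM. VIM was at 865 to 903 FPKM in BRQ libraries and 1849 to 1902 FPKM in DMSO libraries. KRT18 and KRT19 were also lower in BRQ libraries, without overlap. KRT18 was at 724 to 787 FPKM in BRQ libraries and 800 to 860 FPKM in DMSO libraries. KRT19 was at 558 to 571 FPKM in BRQ libraries and 690 to 732 FPKM in DMSO libraries. KRT8 overlapped, at 814 to 877 FPKM in BRQ libraries and 782 to 822 FPKM in DMSO libraries. EPCAM was higher, at 99.5 to 111 FPKM in BRQ libraries and 81.7 to 88.1 FPKM in DMSO libraries. KRT7 was barely above 1 FPKM, at 1.15 to 1.39 FPKM in BRQ libraries and 1.13 to 1.30 FPKM in DMSO libraries. Of the 4 immune markers only CD68 reached 1 FPKM, and it carried sums of 155 to 164 FPKM in BRQ libraries and 104 to 110 FPKM in DMSO libraries, while PTPRC and CD3E stayed near 0. Of the 3 fibroblast markers, LUM and COL1A1 reached 1 FPKM, and the sums were 77.4 to 82.9 FPKM in BRQ libraries and 52.0 to 54.8 FPKM in DMSO libraries, mostly from LUM, with DCN near 0. The part of CD68 and LUM in the values below was not tested. Pancreatic acinar and endocrine markers were below 1 FPKM or not in the table. BRQ libraries 1 and 2 held haemoglobin transcripts, with HBB at 64.2 and 32.8 FPKM, against 0.739 FPKM in BRQ library 3 and at most 0.677 FPKM in DMSO libraries. The part that such transcripts play in the values below was not tested, but without BRQ libraries 1 and 2 again 5 members were called higher and 3 lower, CDA then taking the place of TK2 among the lower.

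TK1, the cytosolic thymidine kinase whose expression is known to peak in S phase, changed most of the 10. It had 158, 145 and 139 FPKM in BRQ libraries 1, 2 and 3, against 57.1, 58.7 and 54.5 FPKM in DMSO libraries 1, 2 and 3. Every BRQ value lay far above every DMSO value, and the ratio of the group means was 2.60. The log2 fold change was 1.36 ± 0.05 (limma adjusted p = 2.76e-08), and 0.430% of tested genes had a larger absolute change. TK1 lies on chromosome 17 from 78174075 to 78187233, on the minus strand, in GENCODE 29 on GRCh38. None of its exon bases is shared with another annotated gene.

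The sequence before the TK1 start is shown because TK1 rose with the S-phase genes described further on, and many promoters of such genes carry CCAAT boxes or E2F sites. RefSeq (GRCh38.p14) lists 2 starts for TK1, and the 250 bases before the downstream one, chr17:78187053-78187302 on the minus strand, read 5′ to 3′ as follows, with the CCAAT letters (here on the opposite strand, as ATTGG) in capitals.
TK1: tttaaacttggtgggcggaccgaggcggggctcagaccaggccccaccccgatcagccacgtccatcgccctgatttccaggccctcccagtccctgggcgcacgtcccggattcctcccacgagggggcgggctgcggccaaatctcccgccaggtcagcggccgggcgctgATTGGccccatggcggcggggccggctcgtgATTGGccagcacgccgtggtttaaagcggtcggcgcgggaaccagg
CCAAT was searched on both strands and found at 2 places in this window. At least 2 matches occurred in 9.53% of the 35116 windows of this length in the RefSeq table, and at least 1 in 32.0%. The window before the upstream TK1 start held no CCAAT. Neither TK1 window held the E2F-like letters TTTCGCGC, TTTGGCGC, TTTCCCGC or TTTGCCGC, which 2.79% of all windows held on either strand. Only these exact letters were searched, so an E2F site that differs from them by 1 letter would be missed. A match is a description of letters and not of a bound site.

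TK2, the mitochondrial thymidine kinase, went the other way. It had 4.98, 4.82 and 5.61 FPKM in BRQ libraries, against 6.91, 6.18 and 6.39 FPKM in DMSO libraries. The groups did not overlap, and the log2 fold change was -0.29 ± 0.07 (limma adjusted p = 0.00595). Without BRQ libraries 1 and 2 the log2 fold change was -0.18 and the call was lost (adjusted p = 0.162), in a fit with a single BRQ library, assumed to vary as the DMSO libraries did. TK2 lies on chromosome 16 from 66508003 to 66552544, and 25% of its exon bases overlap exons of other annotated genes. Reads of those genes cannot be told apart from its own there if strand was not used. For the 3.15% shared with AC010542.3, a gene on the same strand, strand would not separate them either.

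The ratio of the thymidine kinases differed between the groups. TK1 FPKM was 31.7, 30.1 and 24.8 times that of TK2 in BRQ libraries, against 8.26, 9.50 and 8.53 times in DMSO libraries. On the log2(FPKM + 1) scale the ratio differed by 1.65 between groups, BRQ minus DMSO, and the groups did not overlap. An exact two-sided permutation test gave p = 0.1, the smallest that 3 libraries against 3 allow. The Benjamini-Hochberg value over the 7 gene pairs compared was also 0.1. TK1 was higher and TK2 lower without overlap, so their ratio had to separate the groups. The permutation p-value thus adds nothing to the results of the single genes. The same holds for the ratios of UCK2 to UCK1, SLC29A2 to SLC29A1 and UCK2 to UMPS given below. The remaining deoxynucleoside kinase, DCK, phosphorylates deoxycytidine and many drug analogues of it. DCK had 14.4, 14.1 and 13.9 FPKM in BRQ libraries, against 11.1, 9.83 and 10.0 FPKM in DMSO libraries. All BRQ values were above all DMSO values, with a log2 fold change of 0.42 ± 0.06 (limma adjusted p = 1.22e-04). DCK lies on chromosome 4 from 70992538 to 71030914, and 6.17% of its exon bases overlap its neighbour MOB1B. MOB1B is on the same strand, so strand would not separate its reads from those of DCK there. TK1 made up 88.4 ± 0.696% of the summed FPKM of TK1, TK2 and DCK in BRQ libraries and 77.2 ± 1.29% in DMSO libraries. DCK made up 8.49 ± 0.342% of that sum in BRQ libraries and 14.0 ± 0.805% in DMSO libraries, although its own level was higher in BRQ.

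The uridine-cytidine kinases, which make UMP and CMP from uridine and cytidine, split. UCK1 had 14.9, 14.5 and 14.9 FPKM in BRQ libraries, against 10.1, 8.15 and 8.45 FPKM in DMSO libraries. UCK2, generally described as the more efficient enzyme of the pair, had 21.5, 21.1 and 21.6 FPKM in BRQ libraries, against 29.8, 29.9 and 30.2 FPKM in DMSO libraries. In neither gene did the groups overlap. The log2 fold change was 0.68 ± 0.07 for UCK1 (limma adjusted p = 1.71e-05) and -0.47 ± 0.04 for UCK2 (limma adjusted p = 6.07e-06). UCKL1, a related protein with a uridine kinase-like domain, had 16.6, 16.4 and 16.5 FPKM in BRQ libraries, against 14.3, 14.3 and 14.2 FPKM in DMSO libraries. Its log2 fold change of 0.20 ± 0.05 passed (limma adjusted p = 0.00437), but 57.6% of tested genes had a larger absolute change. The call of UCKL1 ended, with a log2 fold change of 0.10 and an adjusted p of 0.0846, once each library was corrected for a trend with genomic span.

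UCK1 lies on chromosome 9 from 131523801 to 131531268, UCK2 on chromosome 1 from 165827531 to 165911618 and UCKL1 on chromosome 20 from 63939829 to 63956415. No stretch of 100 bases was shared between the GENCODE 29 transcripts of any of the 3, so reads of that length would not be split between them. Exon bases shared with other annotated genes came to 0.223% for UCK1, 7.56% for UCK2 and 7.41% for UCKL1. The 250 bases before the RefSeq starts (GRCh38.p14) of UCK1 (chr9:131531264-131531513, minus strand) and UCK2 (chr1:165827364-165827613, plus strand) are set side by side because these paralogs moved in opposite directions. Capitals mark CCAAT on either strand.
UCK1: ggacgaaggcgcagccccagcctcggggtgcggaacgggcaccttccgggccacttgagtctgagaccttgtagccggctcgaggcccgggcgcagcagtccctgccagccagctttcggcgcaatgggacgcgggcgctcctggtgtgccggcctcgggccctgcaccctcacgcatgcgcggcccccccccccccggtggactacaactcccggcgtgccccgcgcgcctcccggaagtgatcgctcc
UCK2: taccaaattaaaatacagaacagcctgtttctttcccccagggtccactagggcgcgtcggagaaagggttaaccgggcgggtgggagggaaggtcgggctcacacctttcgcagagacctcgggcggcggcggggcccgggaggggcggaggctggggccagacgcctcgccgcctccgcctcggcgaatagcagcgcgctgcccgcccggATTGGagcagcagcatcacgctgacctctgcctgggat
The UCK2 window held 1 CCAAT and 4 matches of the SP-like letters GGGCGG on either strand. Of all windows, 42.6% held GGGCGG at least once and 24.3% held 2 or more matches. The UCK1 window held neither, and neither window held the E-box CACGTG, present in 6.34% of all windows. The windows were 74.0% G and C for UCK1 and 66.8% for UCK2, above the median of 58.0% over all windows. The part of these letters in the opposite changes was not tested.

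Because UCK1 rose and UCK2 fell, the makeup of the family moved more than its total. UCK2 made up 40.6 ± 0.114% of the summed FPKM of the 3 genes in BRQ libraries and 56.4 ± 1.19% in DMSO libraries. UCK1 made up 28.1 ± 0.102% in BRQ libraries and 16.7 ± 1.64% in DMSO libraries. By a rough estimate, counting alone gives a relative SD of up to 3.90% for UCK1 and 1.44% for UCK2. The smaller SDs of these shares in BRQ libraries are thus not a measure of precision. The sum itself was 52.7 ± 0.540 FPKM in BRQ libraries and 53.1 ± 0.917 FPKM in DMSO libraries, and the groups overlapped. With median-of-ratios or TPM scaling the sum in BRQ was 0.948 or 0.954 times that in DMSO without overlap, so whether the totals overlapped rested on the scaling, while the shares do not depend on it. UCK2 FPKM was 1.44, 1.45 and 1.45 times that of UCK1 in BRQ libraries, against 2.96, 3.66 and 3.57 times in DMSO libraries. The log2 ratio differed by -1.14 between groups, BRQ minus DMSO (exact permutation p = 0.1, the smallest possible; 0.1 over the 7 pairs). The log2 ratio of UCKL1 to UCK1 differed by -0.48 (exact permutation p = 0.1).

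**Figure D2:**
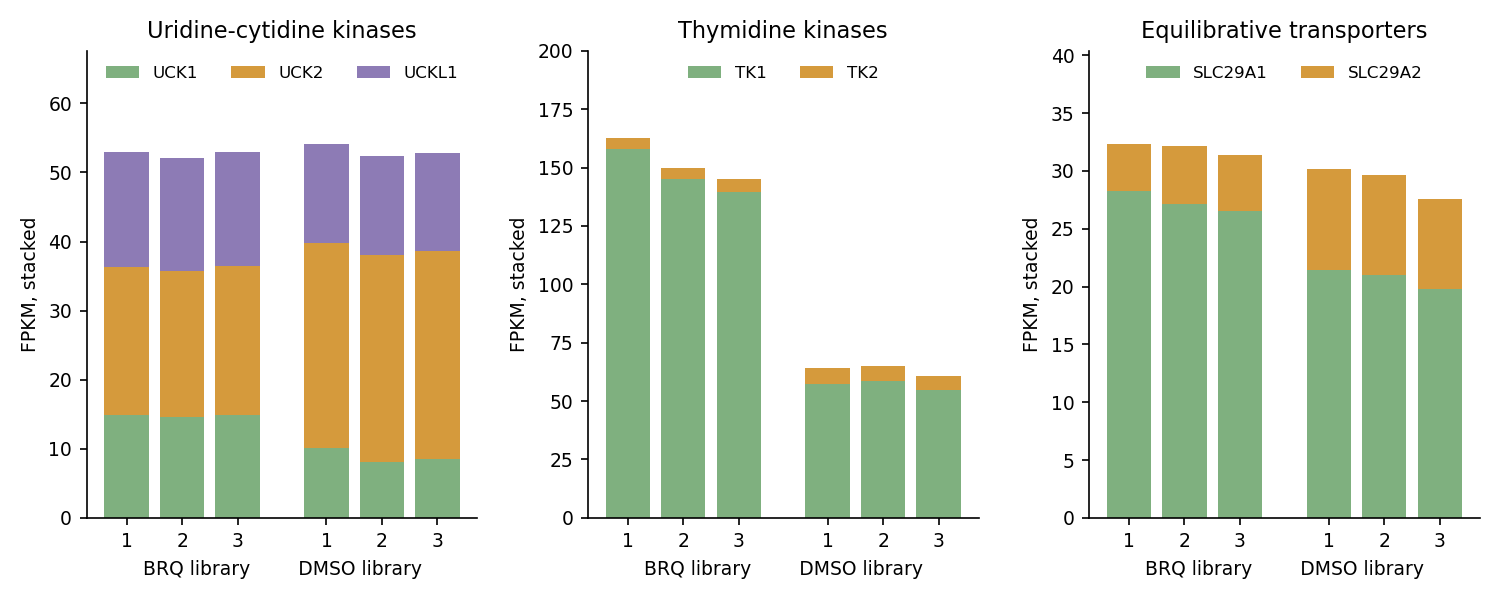
FPKM per library stacked by gene for the uridine-cytidine kinases, the thymidine kinases and the equilibrative transporters, with BRQ libraries left of DMSO libraries in each panel and axes from 0. The kinase stack on the left has nearly the same height in all 6 libraries with a smaller UCK2 layer in BRQ, and SLC29A2 takes 14.5% of the transporter stack in BRQ and 28.9% in DMSO on average.

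The transporters showed a similar exchange. SLC29A1 (ENT1), the main equilibrative carrier of nucleosides at the plasma membrane, had 28.3, 27.1 and 26.5 FPKM in BRQ libraries, against 21.4, 21.0 and 19.8 FPKM in DMSO libraries. SLC29A2 (ENT2), which also carries nucleobases, had 4.03, 4.97 and 4.84 FPKM in BRQ libraries, against 8.80, 8.68 and 7.80 FPKM in DMSO libraries. Neither gene had overlapping groups. The log2 fold change was 0.38 ± 0.05 for SLC29A1 (limma adjusted p = 7.48e-05) and -0.75 ± 0.08 for SLC29A2 (limma adjusted p = 1.86e-05), and 6.02% of tested genes had a larger absolute change than SLC29A2. SLC29A2 was the least precisely counted of the 10, with a rough estimate of 350.2 to 733 fragments per library, for which counting alone gives a relative SD of up to 5.34%.

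SLC29A1 FPKM made up 85.5 ± 1.71% of the sum of both carriers in BRQ libraries and 71.1 ± 0.537% in DMSO libraries. The sum was 31.9 ± 0.518 FPKM in BRQ libraries and 29.2 ± 1.37 FPKM in DMSO libraries. The groups did not overlap in the deposited values but did under median-of-ratios scaling. The log2 ratio of SLC29A2 to SLC29A1 differed by -1.13 between groups, BRQ minus DMSO (exact permutation p = 0.1, the smallest possible). SLC29A1 lies on chromosome 6 from 44219505 to 44234151 and SLC29A2 on chromosome 11 from 66362521 to 66372214. Of the exon bases of SLC29A2, 10.3% overlap an annotated antisense RNA, and none of those of SLC29A1 overlap another gene. Of the other carriers, SLC29A4 stayed below 1 FPKM in every library, SLC28A1 and SLC28A3, concentrative carriers, at 0.101 FPKM or less, and SLC28A2 was not in the table. SLC29A3, an intracellular carrier, rose to 4.01 ± 0.488 FPKM in BRQ cells, against 2.42 ± 0.290 FPKM in DMSO cells (log2 fold change 0.55 ± 0.10, limma adjusted p = 4.86e-04).

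CDA, which deaminates cytidine and deoxycytidine, was the highest of the 10 in DMSO and next to TK1 in BRQ. It had 152, 142 and 127 FPKM in BRQ libraries, against 156, 152 and 137 FPKM in DMSO libraries. The groups overlapped, and the log2 fold change of -0.08 ± 0.07 did not pass (limma adjusted p = 0.329), with a 95% confidence interval of -0.23 to 0.07. It passed as lower under TPM scaling (log2 fold change -0.14, adjusted p = 0.0468) and without BRQ libraries 1 and 2 (-0.22, adjusted p = 0.0284), while without BRQ library 3 the log2 fold change was -0.0087 (adjusted p = 0.912). CMPK1, the UMP and CMP kinase that serves salvage and new synthesis alike, had 48.3, 43.0 and 45.0 FPKM in BRQ libraries, against 43.5, 40.5 and 42.4 FPKM in DMSO libraries. These groups overlapped too, and the log2 fold change of 0.11 ± 0.05 did not pass (limma adjusted p = 0.101, interval -0.01 to 0.22). CMPK1 passed without BRQ library 2 (0.14, adjusted p = 0.0479), and without BRQ library 1 its log2 fold change was 0.06 (adjusted p = 0.282). CDA lies on chromosome 1 from 20588948 to 20618908 and CMPK1 on the same chromosome from 47333797 to 47378839, and neither shares exon bases with another gene. DCK FPKM was 0.0944, 0.0988 and 0.110 times that of CDA in BRQ libraries, against 0.0712, 0.0646 and 0.0732 times in DMSO libraries, a difference of 0.50 in the log2 ratio, BRQ minus DMSO (exact permutation p = 0.1).

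**Figure D3:**
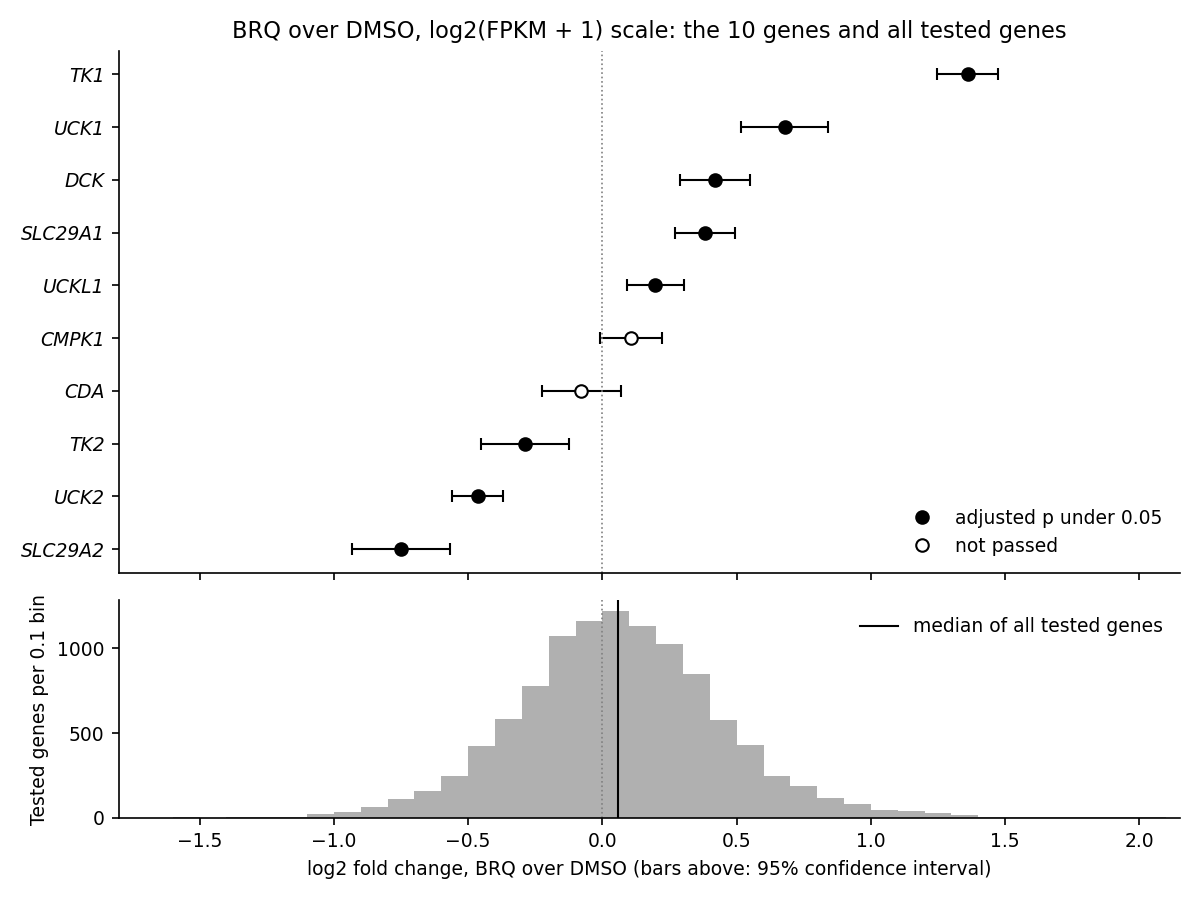
Upper panel, log2 fold change of each gene with its 95% confidence interval, filled where the adjusted p was under 0.05 and open where it was not; lower panel, the distribution over all tested genes on the same axis. TK1 at 1.36 lies in the far right tail, SLC29A2 at -0.75 in the left tail, and UCKL1, CDA and CMPK1 near the median of 0.06.

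In order of level per length, BRQ cells had TK1 and CDA at the top, with overlapping libraries, then CMPK1, SLC29A1, UCK2, UCKL1, UCK1 and DCK, each above the next in all its libraries. TK2 and SLC29A2 came last and overlapped. In DMSO cells the order was CDA, TK1, CMPK1, UCK2, SLC29A1 and UCKL1, again each above the next, followed by DCK, UCK1 and SLC29A2, of which neighbours overlapped, and TK2. UCK2 thus stood above SLC29A1 in DMSO cells and below it in BRQ cells, without overlap in either group. Among all tested genes, the BRQ mean of TK1 was at percentile 96.2 and its DMSO mean at percentile 89.4, while SLC29A2 was at percentile 26.4 in BRQ and 44.2 in DMSO.

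Genes that supply dTMP and deoxynucleotides without salvage, or limit their pools, were set beside TK1. Of 8 genes in this list, 7 rose, none fell and 1 did not pass, beside 36.9% higher and 25.2% lower among all tested genes. The list's median log2 fold change was 0.59. Those that rose included SHMT1, a serine hydroxymethyltransferase (11.99 ± 0.561 FPKM in BRQ and 4.83 ± 0.726 FPKM in DMSO), and RRM1, the large subunit of ribonucleotide reductase (36.9 ± 0.432 FPKM in BRQ and 22.8 ± 0.833 FPKM in DMSO), with a limma adjusted p of at most 1.36e-06. They also included SAMHD1, which breaks down deoxynucleoside triphosphates (16.4 ± 0.590 FPKM in BRQ and 12.1 ± 0.202 FPKM in DMSO, log2 fold change 0.40, limma adjusted p = 6.84e-05). TYMS, which makes dTMP from dUMP, stood at 72.2 ± 4.36 FPKM in BRQ and 48.0 ± 2.02 FPKM in DMSO (log2 fold change 0.58 ± 0.05, limma adjusted p = 4.98e-06). TK1 FPKM was 2.05, 2.03 and 2.04 times that of TYMS in BRQ libraries, against 1.16, 1.20 and 1.19 times in DMSO libraries. The log2 ratio differed by 0.78, BRQ minus DMSO, with no overlap (exact permutation p = 0.1, the smallest possible).

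Of 16 S-phase genes, 14 rose, none fell and 2 did not pass, beside 36.9% higher and 25.2% lower among all tested genes. The list's median log2 fold change was 0.79, below the 1.36 of TK1. CCNE2, a cyclin of S-phase entry, led with a log2 fold change of 2.07 ± 0.07, followed by the transcription factor E2F1 at 1.77 ± 0.07 and the cyclin CCNE1 at 1.44 ± 0.05 (limma adjusted p of at most 2.81e-08). These lists were drawn up with earlier results of these data known, so their counts are a description and not independent evidence. RefSeq windows were found for 12 of the 16 S-phase genes. Of these 17 windows, 8 held the E2F-like letters and 13 held CCAAT. Of the 12 windows of the 9 members with an entry, none held the E2F-like letters and 2 held CCAAT. Among all windows, 2.79% held the E2F-like letters and 32.0% CCAAT. As the search took exact letters only, none in 12 windows does not show that the members lack E2F sites.

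De novo synthesis of UMP and CTP gave 1 of 5 genes higher, 1 lower and 3 not passed. Among all tested genes, 36.9% were higher and 25.2% lower. The list's median log2 fold change was -0.05. UMPS, which makes UMP from orotate and so meets the UCK enzymes at their product, stood at 6.05 ± 0.371 FPKM in BRQ and 4.16 ± 0.386 FPKM in DMSO (log2 fold change 0.45 ± 0.08, limma adjusted p = 4.96e-04). CTPS2, a CTP synthase, stood at 2.77 ± 0.177 FPKM in BRQ and 3.39 ± 0.278 FPKM in DMSO (log2 fold change -0.22 ± 0.08, limma adjusted p = 0.0345). DHODH was at 3.87 ± 0.123 FPKM in BRQ and 4.44 ± 0.513 FPKM in DMSO, and its log2 fold change of -0.15 ± 0.08 did not pass (limma adjusted p = 0.123). UCK2 FPKM was 3.81, 3.36 and 3.47 times that of UMPS in BRQ libraries, against 7.91, 6.59 and 7.21 times in DMSO libraries, and the log2 ratio differed by -0.92, BRQ minus DMSO (exact permutation p = 0.1).

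Of 20 further salvage enzymes and carriers, 15 were tested, of which 6 rose, 2 fell and 7 did not pass. Among all tested genes, 36.9% were higher and 25.2% lower. The list's median log2 fold change was 0.14. ADK, adenosine kinase of purine salvage, fell to 4.57 ± 0.432 FPKM in BRQ cells, against 9.002 ± 0.577 FPKM in DMSO cells (log2 fold change -0.85 ± 0.08, limma adjusted p = 4.86e-06). NME7, of the nucleoside diphosphate kinase family, fell to 4.75 ± 0.772 FPKM in BRQ cells, against 7.24 ± 0.644 FPKM in DMSO cells (log2 fold change -0.52 ± 0.10, limma adjusted p = 0.00106). The authors' deposited table names pyrimidine metabolism as a pathway for 8 of the 10 members, the carriers being the exceptions. By the names in the authors' deposited table, 43 tested genes belong to that pathway, of which 12 were higher and 9 lower by the limma test. Both are smaller shares than the 36.9% higher and 25.2% lower among all tested genes.

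**Figure D4:**
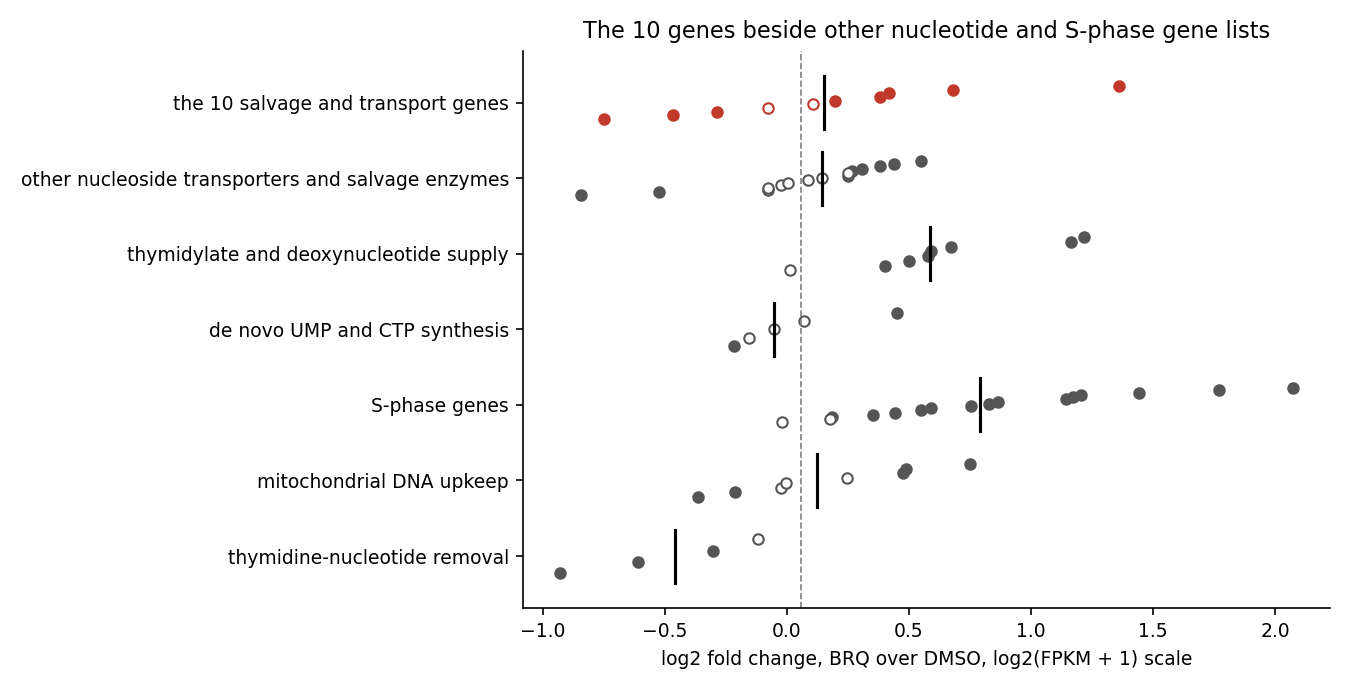
Log2 fold change, BRQ over DMSO, of every tested gene in each list (filled, adjusted p under 0.05; open, not passed), with the list's median as a vertical bar and the median of all tested genes as a dashed line. The 10 salvage and transport genes spread from -0.75 to 1.36 around a median of 0.15, and the S-phase genes from -0.02 to 2.07 around 0.79.

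**Figure D5:**
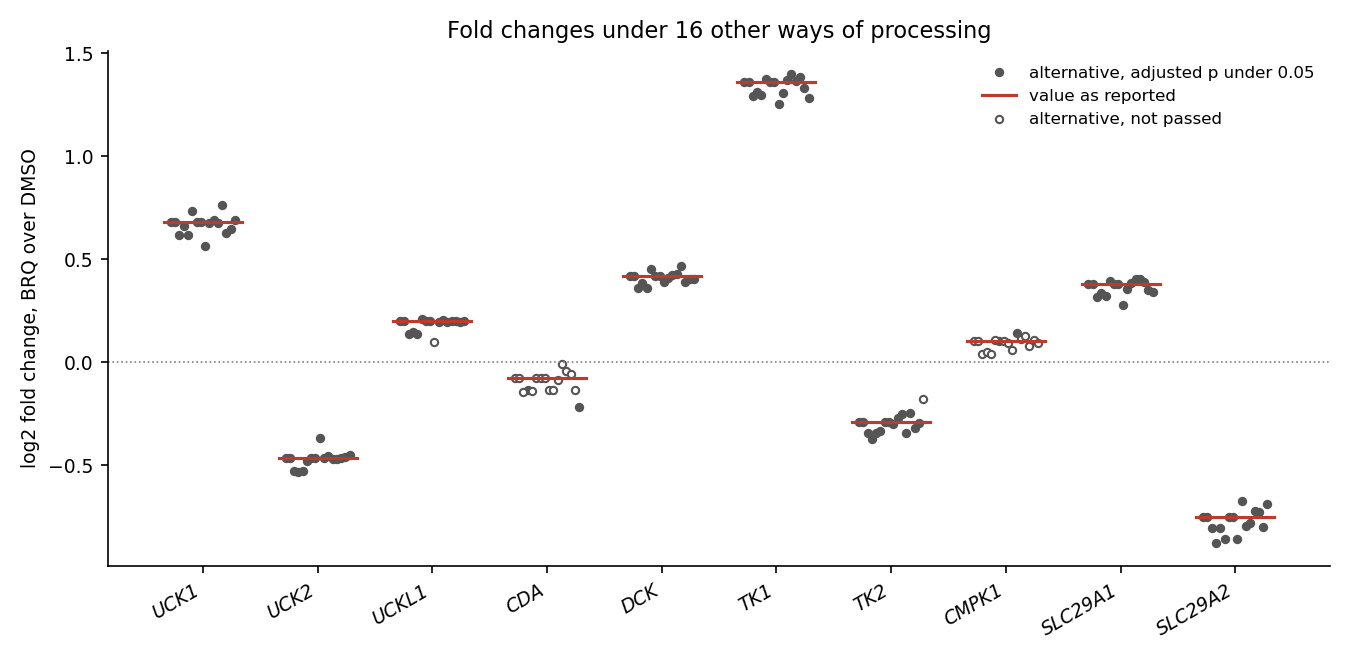
Log2 fold change of the 10 genes as reported (red line) and under 16 other ways of processing (points, open where the adjusted p was not under 0.05). No gene changed sign: TK1 ran from 1.26 to 1.40, UCK1 from 0.56 to 0.76 and SLC29A2 from -0.88 to -0.67.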

How the data were processed

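RNA of 6 libraries was extracted with TRIzol and sequenced by Illumina protocols, per the labels. The submitters' processing notes name fastp, HTSeq and hg38. The sources used here do not give the aligner, annotation or strand setting. The authors deposited 1 table of FPKM values per gene and library. It gives no library totals. In 1459 low genes (no value of 0.3 FPKM or more, above 0 in 5 or 6 libraries), 87.9% had values that were multiples of one step to within 0.02 of a fragment, allowing up to 12 fragments in the lowest library. With GENCODE 29 exon lengths this gave a rough depth of 3.14e+07 fragments, an estimate because the authors' gene lengths are unknown.

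Values of genes averaging 1 FPKM or more were put on the log2(FPKM + 1) scale. They were fitted with limma 3.58.1 (R 4.3.3) with treatment as the sole term, eBayes with a mean-variance trend, and two-sided Benjamini-Hochberg adjusted p-values over all 10689. On data simulated from the table for this comparison, the test found 93% of the simulated 1.5-fold changes and 99% of the 2-fold changes among 10689 genes. Of its calls there, 5.42% fell on unchanged genes. Only a small part of the genes was changed, none of them at the lowest levels, whereas 62.1% were called in the data. These shares therefore need not hold for the data. Gene pairs were compared within libraries by exact permutation (scipy 1.17.1). Positions are from GENCODE 29, and 99.4% of genes had one. Promoter windows are from RefSeq, with entries for 9 of 10 members. Protein sequences were not used here.

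Members and lists were chosen with earlier results of these data known. The members are named whatever their values, and of each list at most 3 genes past the threshold with the largest changes, of which 1 gene is not reported here. TYMS and UMPS were named as pair partners, DHODH as the stated target and HBB as a mark of libraries that stand apart. SAMHD1, POLG2 and SLC25A36 were named after their values were seen. LUM, CD68 and the other markers named were fixed as a list. Settings tried were a pseudocount of 0.1, no filter or a mean of 5 FPKM, 3 scalings, a replicate block, robust eBayes, removal of a trend with genomic span, and leaving out each library. Leaving out BRQ libraries 1 and 2 was added after seeing the data. Groups came from the sample titles.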

Additional observations from a re-analysis of the deposited data

How the results depend on the processing

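Over 16 alternatives none of the 10 genes changed sign, and UCK1, UCK2, DCK, TK1, SLC29A1 and SLC29A2 kept their calls in all. The members called higher numbered 4 to 6 and those called lower 3 to 4, and the counts over all tested genes ran from 3124 to 4030 higher and from 1970 to 3296 lower, each within 1.5 times of the reported 3946 higher and 2692 lower. The exceptions among single genes were UCKL1, which was lost when the trend with genomic span was removed, TK2, lost without BRQ libraries 1 and 2, CDA, gained under TPM scaling and without BRQ libraries 1 and 2, and CMPK1, gained without BRQ library 2 and under the replicate block. The cause was not tested. With a replicate block 6 members were higher and 3 lower, CMPK1 passed (adjusted p = 0.0463), and all tested genes gave 4030 higher and 2769 lower. Same-numbered libraries correlated in their deviations at 0.144, 0.00804 and 0.0584. BRQ libraries 1 and 3 correlated best with the DMSO library of their own number, but BRQ library 2 with DMSO library 3 (0.105). No label pairs the numbers, and they were not taken as pairs. The 7 pair ratios kept their direction in all of their alternatives, a pseudocount of 0.1 and leaving out libraries. Since the groups overlapped in none of the 7 pairs, leaving out libraries could not have reversed a direction. The pairs were not run with the trend with genomic span removed.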

Other observations

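Of 4 tested genes of a list of TYMP and nucleotidases, 3 fell, none rose and 1 did not pass. Among all tested genes, 25.2% were lower and 36.9% higher. The list's median log2 fold change was -0.46. The nucleotidase NT5C3A was at 29.5 ± 2.20 FPKM in BRQ and 57.0 ± 3.06 FPKM in DMSO (log2 fold change -0.93 ± 0.06, limma adjusted p = 5.26e-07). NT5E, an ectonucleotidase that releases nucleosides outside the cell, was at 43.0 ± 1.66 FPKM in BRQ and 66.2 ± 0.282 FPKM in DMSO, and TYMP, which cleaves thymidine, at 65.1 ± 1.21 FPKM in BRQ and 80.6 ± 2.04 FPKM in DMSO (limma adjusted p of at most 7.30e-05 for both). NT5M, a mitochondrial nucleotidase, stayed under 1 FPKM and was not tested.

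Genes that copy and maintain mitochondrial DNA, which draws on the TK2 product, gave 3 of 8 higher, 2 lower and 3 not passed. These counts are near the shares over all tested genes, 36.9% higher and 25.2% lower. The list's median log2 fold change was 0.12. POLG, the mitochondrial DNA polymerase, was at 41.9 ± 1.27 FPKM in BRQ and 24.5 ± 0.0207 FPKM in DMSO (log2 fold change 0.75 ± 0.04, limma adjusted p = 3.01e-07). TFAM, which packages that DNA, was at 11.9 ± 0.521 FPKM in BRQ and 8.22 ± 0.483 FPKM in DMSO, and the exonuclease MGME1 at 20.2 ± 0.582 FPKM in BRQ and 14.3 ± 0.937 FPKM in DMSO (limma adjusted p of at most 6.09e-05 for both). The lower genes were POLG2, the accessory subunit of that polymerase (log2 fold change -0.37, limma adjusted p = 2.54e-04), and SLC25A36, a mitochondrial carrier of pyrimidine nucleotides (log2 fold change -0.21, limma adjusted p = 0.0113).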
